A study of Mus musculus with 20 samples.

Results

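Nefl, Nefm, Nefh and Ina encode the light, medium and heavy neurofilament subunits and alpha-internexin, the 4 proteins that build neurofilaments in the central nervous system. They were taken by gene symbol from a table of 23129 genes, and all 4 were present and passed the filter on low counts. The family was chosen by the fold change of Nefl between fed and fasted wild-type neurons, which was already known, so values of that contrast are given as a description with no test. The libraries hold RNA of AgRP neurons, hypothalamic cells that drive feeding, which were sorted by the red reporter tdTomato from mice of the C57BL/6 strain aged 25 to 30 days, at 1000 cells a library. Of the 20 libraries, 5 belong to each of 4 groups: wild type fed, wild type fasted, Phf6 conditional knockout (cKO) fed and cKO fasted. Wild-type mice were AgRP-Cre/+; Ai9/+ littermates of the cKO mice, which were Phf6 flox/y; AgRP-Cre/+; Ai9/+. Both genotypes therefore carry the Cre recombinase and the Cre-dependent reporter Ai9, and the deletion is limited to cells in which AgRP-Cre is or was active. Fasted mice lost their food at 5 pm on the day before collection and kept water.

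Neurofilaments are the intermediate filaments of neurons. Nefl forms the core of the polymer, Nefm and Nefh carry long tails that project from it and are heavily phosphorylated in axons, and Ina copolymerizes with the other subunits from early in development. The filaments set axon calibre and move along axons by slow transport.

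The 4 genes are paralogues, and the kinship of Nefl and Ina, which the results turn on most, can be read from a coding exon of 125 bases near the end of the region for the central rod, the coiled-coil part through which the subunits pair. It is exon 2 of 4 in Nefl and exon 2 of 3 in Ina (GENCODE M21, GRCm38). The sequences are shown because they give a direct view of what these members share and of how far reads from 1 can be told from those of the other. Capitals mark the 95 positions that are the same in both genes.
Nefl, chr14:68085974-68086098, plus strand: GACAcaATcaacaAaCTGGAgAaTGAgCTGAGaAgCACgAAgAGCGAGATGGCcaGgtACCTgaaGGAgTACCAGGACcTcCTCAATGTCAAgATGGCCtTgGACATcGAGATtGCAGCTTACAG
Ina, chr19:47021833-47021957, plus strand: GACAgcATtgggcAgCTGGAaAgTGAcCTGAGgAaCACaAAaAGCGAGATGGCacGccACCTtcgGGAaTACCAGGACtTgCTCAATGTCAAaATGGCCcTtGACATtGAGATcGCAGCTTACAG

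The exon was identical at 76.0% of its positions, in runs of at most 11 bases. Across a single transcript of each gene, read on its own strand, no window of 30 bases was shared by any pair of the 4 members. For Nefm this was the model with 3 exons. The bases that a longer Nefm model shares with Nefl on the opposite strand, given below, are therefore not covered. Among these transcripts the longest run shared by a pair was 23 bases, between Nefm and Nefh. Nefl shared no run longer than 17 bases with any other of them.

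Nefl and Nefm are neighbours on chromosome 14, and how far they overlap depends on the annotation. In GENCODE M21, Nefl spans 68083863 to 68089095 on the plus strand and Nefm 68082590 to 68124846 on the minus strand. The last exon of a long Nefm transcript model with 4 exons covers the start of Nefl and ends beyond it, so 1108 bases are exonic in both genes, which is 32.8% of the exon bases of Nefl and 19.2% of those of Nefm. The other Nefm model, with 3 exons, comes no nearer than 35.42 kb to the start of Nefl and shares none. In RefSeq (GRCm38.p6) Nefm spans 68119545 to 68125004, and 30449 bases separate it from Nefl. Of the gene names in the table, 99.4% match a RefSeq symbol or synonym and 95.4% a GENCODE symbol, but which annotation was used for counting is not given in the sources used here. Because the library kit marks no strand, where the long model was used, reads from the shared bases cannot be assigned. Nefh (chromosome 11, 4938754 to 4948064, minus strand) shares no exon base with another gene, and Ina (chromosome 19, 47014698 to 47025327, plus strand) shares 14.1% with Nt5c2 on the opposite strand. Nt5c2 did not pass in any of the 4 group comparisons (edgeR adjusted p from 0.312 to 0.713).

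**Figure D1:**
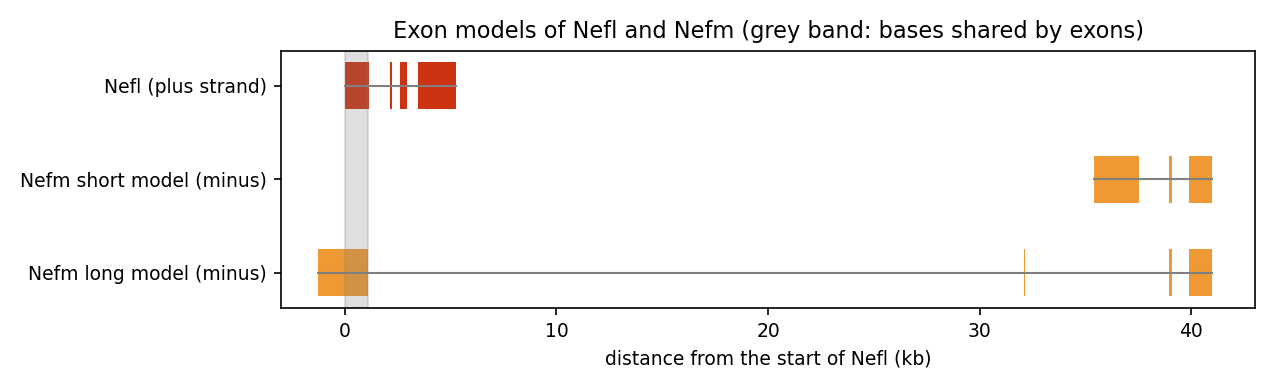
Exon models of Nefl and Nefm in GENCODE M21, with exons as boxes and distance from the start of Nefl in kb on the x axis. Only the long Nefm model reaches the first exon of Nefl, where 1108 bases are shared; the short model comes no nearer than 35.42 kb.

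Libraries held 8494499 to 13573524 counts, with every fed library (at least 10604977) deeper than every fasted one (at most 10000278). Phf6, the targeted gene, was at 264 to 292 CPM (counts scaled to library size and composition) in fed and 116 to 142.5 in fasted wild type, against 65.0 to 76.3 and 53.6 to 71.3 in cKO, so each library matched its genotype label. Agrp (at least 4259 CPM) and Npy (at least 15650 CPM) were high in all 20 libraries. Fasted replicates 1 and 2 stood apart from fasted replicates 3 to 5, since deviations from the group mean correlated at 0.0433 within and -0.441 between these sets in wild type and at -0.0913 and -0.353 in cKO, a difference that fed groups did not have (-0.248 and -0.251 in wild type, -0.252 and -0.248 in cKO). The members' fold changes that rest on fasted libraries are therefore also given for each set. The labels do not say whether each library is 1 mouse, so errors and p-values measure the spread between libraries. In pools of sorted cells, fewer cells of a type and less RNA per cell cannot be told apart.

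In fed wild-type neurons alpha-internexin was the leading member. Per kb of exon, a scale on which genes can be compared, Ina was at 13.5 ± 0.355 CPM per kb (mean ± SD, n = 5), Nefh at 6.63 ± 0.633, Nefl at 3.47 ± 0.71 and Nefm at 1.29 ± 0.185. Each of these levels lay farther from the next than the sum of their SDs. In fed cKO the order was the same, with Ina at 15.1 ± 1.32, Nefh at 6.21 ± 0.890, Nefl at 3.65 ± 0.891 and Nefm at 0.928 ± 0.152 CPM per kb.

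The order of the scarcer members after fasting was not settled by these data. In fasted wild type Ina (7.003 ± 1.02 CPM per kb) and Nefh (5.26 ± 0.805) led but lay within the sum of their SDs, and so did Nefm (0.502 ± 0.158) and Nefl (0.428 ± 0.155). In fasted cKO Ina (8.82 ± 0.805) was apart from Nefh (6.39 ± 1.19), while Nefl (0.974 ± 0.367) and Nefm (0.687 ± 0.214) were not apart. The length used matters for Nefl and Nefm. With only the exon bases that no other gene shares, Nefl was at 5.17 ± 1.06 and Nefm at 1.597 ± 0.229 CPM per kb in fed wild type, and at 0.637 ± 0.230 and 0.621 ± 0.195 in fasted wild type. On that length fed Nefl lay within the sum of the SDs from fed Nefh (6.63 ± 0.633). Over the short Nefm model, Nefm was at 2.24 ± 0.321 in fed and 0.871 ± 0.273 in fasted wild type, and at 1.19 ± 0.371 in fasted cKO. Fed Nefl thus stayed above fed Nefm with every length tried, and the order of this pair in fasted groups changed with the length.

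Nefl, the core subunit, differed more with feeding state than any other member. Its values in fed wild-type replicates 1 to 5 were 13.7, 12.3, 8.56, 9.97 and 14.1 CPM, and in fasted wild type 1.05, 0.775, 1.95, 1.91 and 1.54 CPM. Every fasted library lay below every fed one. How many of all tested genes had fed and fasted libraries as separate was not counted, here or for the other members. With 60.9% of all tested genes changed in this comparison, such separation is not read as particular to a member. The means were 11.7 ± 2.40 and 1.45 ± 0.522 CPM (SD, n = 5), a 7.96-fold difference (log2 fold change -2.99 ± 0.27 SE). These fasted values rest on 6 to 18 reads per library, and the exact 95% Poisson interval of the lowest count, 6, is 2.20 to 13.1 reads, which covers counting error only. Of 13237 tested genes, 57 had a more negative fold change in this comparison. As the rule for choosing the family used it, the size is a description.

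In cKO neurons, whose libraries did not enter that choice, Nefl fell as well. It was at 13.4, 10.3, 8.69, 12.8 and 16.5 CPM in fed cKO replicates 1 to 5, and at 4.13, 2.28, 4.75, 3.52 and 1.79 CPM in fasted cKO. Again no fasted value reached the lowest fed value. The mean went from 12.3 ± 3.01 to 3.29 ± 1.24 CPM (SD, n = 5), a 3.73-fold fall (log2 fold change -1.90 ± 0.24 SE, edgeR adjusted p = 1.48e-07). The fall was -1.94 ± 0.29 with fasted replicates 1 and 2 alone and -1.87 ± 0.25 with replicates 3 to 5 alone (edgeR adjusted p = 7.15e-07 and 6.89e-08), within a range of adjusted p from 5.26e-13 (DESeq2) to 1.22e-06 (edgeR) over all alternatives.

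Both comparisons of Nefl between the genotypes use wild-type values by which the family was chosen, so they are descriptions with no test. Fed cKO and fed wild type differed by 0.072 ± 0.21 on the log2 scale, with a 95% interval from -0.36 to 0.50. Fasted cKO was 2.24-fold above fasted wild type (log2 fold change 1.17 ± 0.30 SE). Of the 5 fasted cKO values, 4 lay above the highest fasted wild-type value of 1.95 CPM, and replicate 5 at 1.79 CPM did not. The difference was 1.80 ± 0.48 in replicates 1 and 2 alone and 0.89 ± 0.34 in replicates 3 to 5 alone. The difference between the fasting responses of the genotypes was 1.09 ± 0.37 on the log2 scale, a description for the same reason.

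**Figure D2:**
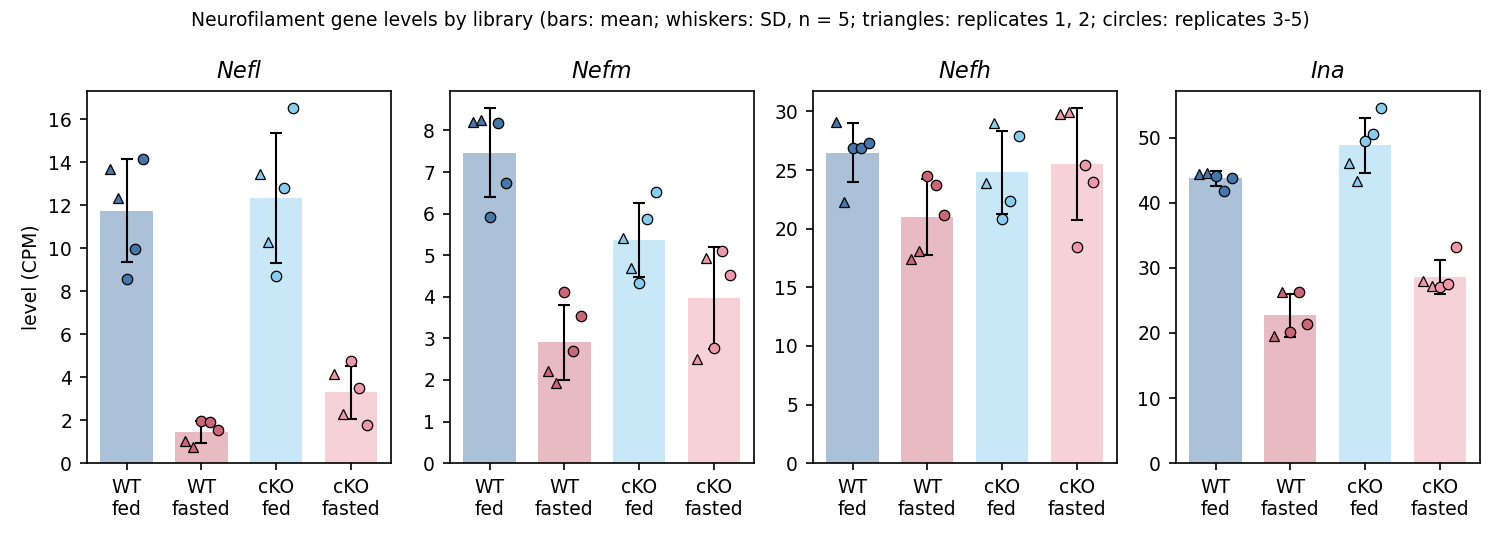
Levels of the 4 genes in CPM on the y axis for each library, by group, with bars for the mean, whiskers for the SD (n = 5), triangles for replicates 1 and 2 and circles for replicates 3 to 5. Fasted values lie below all fed values of the same genotype for Nefl and Ina in both genotypes and for Nefm in wild type, while those of Nefh overlap. The share of all tested genes with such separation was not counted.

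Nefm, the medium subunit with a phosphorylated side arm, was the scarcest member in fed neurons. In fed wild type its level was 8.22, 8.26, 5.92, 8.18 and 6.75 CPM in replicates 1 to 5, and in fasted wild type 2.22, 1.94, 4.12, 2.70 and 3.53 CPM. These groups did not overlap, and the log2 fold change was -1.35 ± 0.23 SE, a 2.55-fold difference given with no test. In fed cKO it was at 5.41, 4.68, 4.34, 5.88 and 6.52 CPM, and in fasted cKO at 2.501, 4.93, 2.78, 5.11 and 4.54 CPM. The cKO groups overlapped, and the difference of -0.43 ± 0.23 did not pass (95% interval from -0.90 to 0.036, edgeR adjusted p = 0.1135). It was -0.53 ± 0.29 in fasted replicates 1 and 2 alone and -0.37 ± 0.24 in replicates 3 to 5 alone. Leaving out each library gave -0.54 to -0.30 (edgeR adjusted p from 0.0657 to 0.291). Under the other alternatives the fall was as small as -0.13, and only the sum with Nefl, given below, passed. Fed cKO was at 5.37 ± 0.881 CPM against 7.46 ± 1.07 in fed wild type, a log2 fold change of -0.48 ± 0.21 that did not pass over all genes (unadjusted p = 0.0331, edgeR adjusted p = 0.171). In a fit of the fed groups alone it passed (edgeR adjusted p = 0.0401). It passed under no other alternative, and leaving out each library gave edgeR adjusted p from 0.140 to 0.310. Fasted cKO against fasted wild type differed by 0.44 ± 0.25, with an interval from -0.063 to 0.95 (edgeR adjusted p = 0.213), and by 0.85 ± 0.39 in replicates 1 and 2 alone and 0.26 ± 0.28 in replicates 3 to 5 alone (edgeR adjusted p = 0.154 and 0.547). Neither genotype comparison of Nefm passed in the fit over all groups, and the fitted signs were opposite in fed and fasted mice. Counted as 1 feature with Nefl, because of the shared bases, the sum fell in cKO by 1.28 ± 0.18 (edgeR adjusted p = 7.05e-07) and was 0.73 ± 0.20 higher in fasted cKO than in fasted wild type, the latter with no test.

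Nefh, the heavy subunit with the longest tail, had the smallest fitted differences with feeding state. Fed wild-type replicates 1 to 5 were at 29.1, 22.3, 26.9, 26.9 and 27.3 CPM and fasted ones at 17.4, 18.1, 24.5, 23.8 and 21.2 CPM. The log2 fold change was -0.33 ± 0.13 SE, and the groups overlapped through fed replicate 2. It was -0.59 ± 0.15 with fasted replicates 1 and 2 alone and -0.19 ± 0.13 with replicates 3 to 5 alone. Fed cKO replicates were at 23.9, 29.0, 20.8, 22.3 and 27.9 CPM and fasted cKO replicates at 29.8, 29.97, 18.4, 25.4 and 24.0 CPM. Their ranges almost coincided, and the difference was 0.038 ± 0.13, with a 95% interval from -0.23 to 0.30 (edgeR adjusted p = 0.828). Its sign changed when cKO_fed replicate 3 or cKO_fasted replicate 1 or 2 was left out (-0.018 to -0.026) and in fasted replicates 3 to 5 alone (-0.13 ± 0.13, against 0.27 ± 0.14 in replicates 1 and 2 alone). With offsets for GC content and length it passed upward (0.36 ± 0.12, edgeR adjusted p = 0.0136, against adjusted p from 0.0136 to 0.999 over all alternatives), and the wild-type difference was -0.022 ± 0.12. Nefh has the highest GC content of the 4 (58.4%, against 57.8% in Nefm, 55.5% in Ina and 48.8% in Nefl).

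Neither genotype comparison of Nefh passed. In fed mice the difference was -0.093 ± 0.13 (95% interval -0.35 to 0.17, edgeR adjusted p = 0.714). In fasted mice it was 0.28 ± 0.13 (0.0046 to 0.55, unadjusted p = 0.0465, edgeR adjusted p = 0.143). Fasted replicates 1 and 2 were at 17.4 and 18.1 CPM in wild type and 29.8 and 29.97 CPM in cKO, a log2 fold change of 0.76 ± 0.17 (edgeR adjusted p = 0.00284), whereas replicates 3 to 5 were at 21.2 to 24.5 and 18.4 to 25.4 CPM, a difference of -0.039 ± 0.14 (edgeR adjusted p = 0.87). It also passed with GC and length offsets (0.35 ± 0.12, edgeR adjusted p = 0.0406) and without cKO_fasted replicate 3 (0.38 ± 0.13, edgeR adjusted p = 0.0403).

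Ina, which copolymerizes with the other subunits, was both the most abundant member and the one with the smallest spread. Fed wild-type replicates were at 44.5, 44.6, 44.0, 41.7 and 43.9 CPM, a coefficient of variation of 2.63%, and fasted ones at 19.5, 26.2, 20.1, 26.2 and 21.4 CPM. The log2 fold change was -0.95 ± 0.094 SE, a 1.93-fold difference with no overlap, again a description, and it was -0.96 ± 0.12 with fasted replicates 1 and 2 alone and -0.95 ± 0.10 with replicates 3 to 5 alone. Fed cKO replicates were at 46.2, 43.4, 49.5, 50.5 and 54.5 CPM and fasted cKO replicates at 28.0, 27.2, 27.0, 27.5 and 33.2 CPM. Ina fell with fasting in cKO by 0.77 ± 0.093 on the log2 scale, or 1.71-fold, with no overlap (edgeR adjusted p = 6.21e-08). The fold change was -0.82 ± 0.11 with fasted replicates 1 and 2 alone and -0.74 ± 0.098 with replicates 3 to 5 alone (edgeR adjusted p = 1.92e-07 and 5.84e-08). With GC and length offsets the fall was 0.54 ± 0.091 on the log2 scale (edgeR adjusted p = 1.76e-05), within adjusted p from 4.81e-15 to 1.76e-05 over all alternatives.

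Ina was also higher in fasted cKO than in fasted wild type, by 0.33 ± 0.098 on the log2 scale, or 1.26-fold (28.6 ± 2.61 against 22.7 ± 3.30 CPM, edgeR adjusted p = 0.0157). The lowest cKO value, 27.0 CPM, lay just above the highest wild-type value, 26.2 CPM. The call was lost without WT_fasted replicate 3 (0.29 ± 0.10, edgeR adjusted p = 0.0520), without cKO_fasted replicate 5 (0.28 ± 0.10, 0.0552), in replicates 1 and 2 alone (0.29 ± 0.14, 0.195) and in a fit of these 2 groups only (0.33 ± 0.12, 0.0963), and held in replicates 3 to 5 alone (0.37 ± 0.12, edgeR adjusted p = 0.0166), within adjusted p from 0.00356 to 0.1945 over all alternatives. In fed mice the genotypes differed by 0.16 ± 0.089 (95% interval -0.023 to 0.34, edgeR adjusted p = 0.293).

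Counted over the family, 2 of 4 members fell with fasting in cKO (Nefl and Ina), 0 rose and 2 did not pass, where 27.0% of all tested genes fell and 26.0% rose, 53.1% in all. In fasted mice Ina was higher in cKO and Nefm and Nefh did not pass, where 11.5% of all genes were higher, 8.84% lower and 20.3% changed. Nefl is left out of that count and of the one for fed mice, since its wild-type values led to the choice of the family. The other members come from the same libraries. In fed mice edgeR called 0 of these other members between the genotypes, with 1 at an unadjusted p under 0.05 (Nefm). DESeq2 called 0 of them as well, against 9.68% of all genes (5.87% higher, 3.81% lower). The wild-type fasting contrast, where the members are only described because it led to the choice of the family, had 31.3% of all genes lower and 60.9% changed either way. The response to fasting differed between genotypes in 17.3% of all genes, upward in 8.87% and downward in 8.44%, and the fitted differences of the members were 1.09 ± 0.37 (Nefl), 0.92 ± 0.33 (Nefm), 0.37 ± 0.18 (Nefh) and 0.18 ± 0.13 (Ina), with no test.

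**Figure D3:**
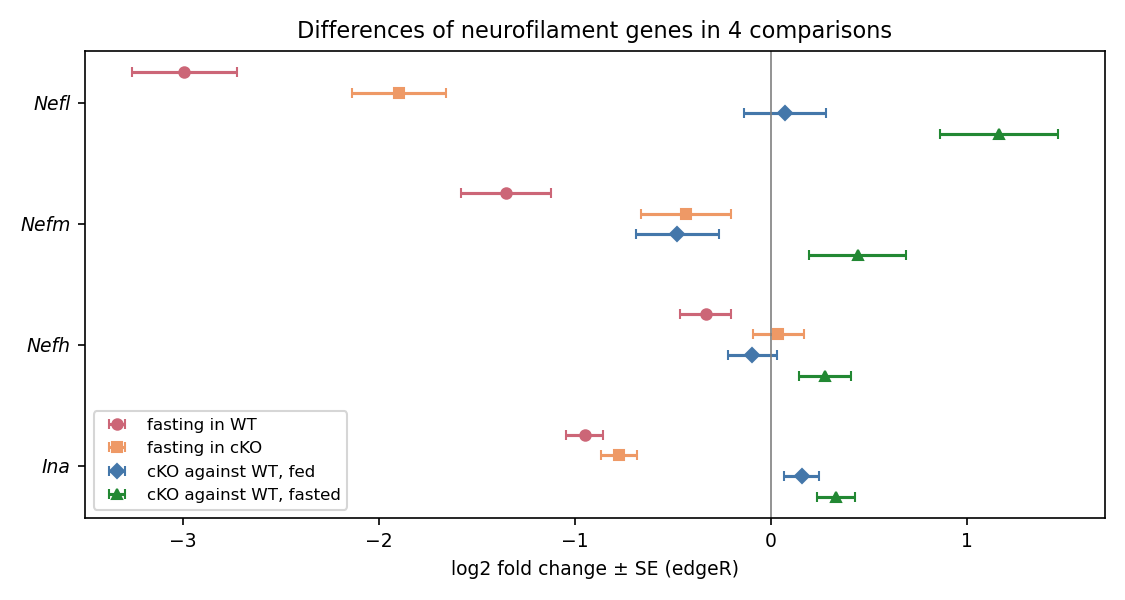
Log2 fold changes of the 4 genes on the x axis with their SE as whiskers, in 4 comparisons. The fasting differences spread from -2.99 for Nefl to -0.33 for Nefh in wild type and from -1.90 to 0.038 in cKO, and the fasted genotypes differ most in Nefl, by 1.17.

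Because the members moved by different amounts, the make-up of the family's transcripts was not the same in fed and fasted libraries. Ratios within a library do not depend on its depth or scaling, and they are given as a description. Per kb, Nefl made up 13.9 ± 2.35% of the family in fed wild type (range 10.6 to 16.3%, n = 5) and 3.21 ± 0.972% in fasted wild type (1.74 to 4.24%). In cKO its share was 13.99 ± 2.34% fed (10.8 to 16.4%) and 5.89 ± 2.56% fasted (3.02 to 9.48%). So the share of Nefl was lower in every fasted library than in any fed library. In wild type the share of Nefh was 26.6 ± 2.22% fed and 39.8 ± 3.84% fasted. In cKO it was 24.1 ± 3.28% fed and 37.7 ± 5.08% fasted, again without overlap between feeding states. Ina held most of the rest, with means between 52.4 and 58.4% in the 4 groups and overlapping ranges.

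Of the 6 ratios between members, that of the heavy to the light subunit differed most with feeding state. The CPM ratio of Nefh over Nefl had a geometric mean of 2.29 in fed and 15.3 in fasted wild type, and of 2.04 in fed and 8.14 in fasted cKO. The ranges of its log2 value were 0.85 to 1.65 and 3.63 to 4.54 in wild type and 0.76 to 1.496 and 1.96 to 3.74 in cKO, so fed and fasted libraries were separate in both genotypes. The log2 ratio of Nefm over Nefl had a mean of -0.64 ± 0.288 in fed and 1.03 ± 0.316 in fasted wild type, so Nefm had more counts than Nefl in every fasted and in no fed wild-type library. In cKO it was -1.18 ± 0.143 fed and 0.30 ± 1 fasted, with single fasted libraries from -0.77 to 1.34. Summed over the 4 genes, the family was at 89.4 ± 4.17 CPM in fed and 48.0 ± 5.31 in fasted wild type, and at 91.3 ± 8.45 and 61.3 ± 4.84 CPM in cKO.

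**Figure D4:**
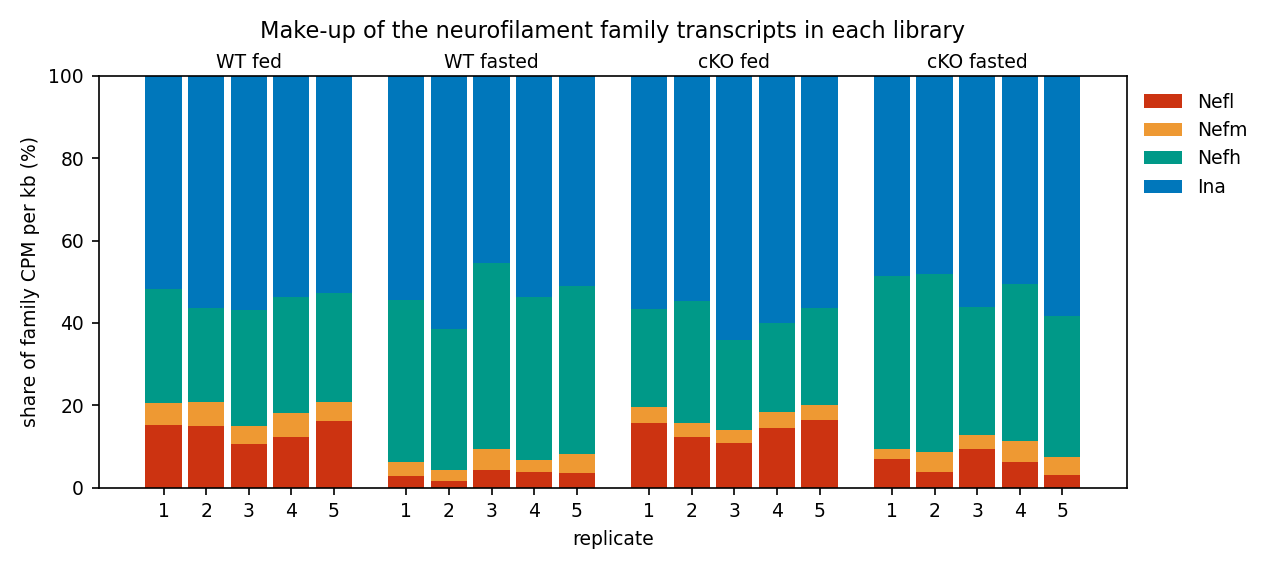
Share of each member in the family's summed CPM per kb on the y axis, as a percentage, for each of the 20 libraries on the x axis. The Nefl segment is 10.6% or more in every fed library and 9.48% or less in every fasted library, and the Nefh segment is wider in the fasted ones.

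Fasted replicates 1 and 2 of wild type were the lowest libraries for 3 members. They averaged 0.914 CPM for Nefl against 1.80 in replicates 3 to 5, 2.08 against 3.45 for Nefm and 17.75 against 23.15 for Nefh, with no overlap between the sets, while Ina did not part them (22.9 and 22.6 CPM). In fasted cKO the sets were alike for Nefl (3.20 and 3.35 CPM) and Ina (27.6 and 29.2), and Nefh went the other way (29.9 and 22.6). With replicates 3 to 5 alone the wild-type fold change of Nefl was -2.69 ± 0.28 and with replicates 1 and 2 alone -3.68 ± 0.37, and for Nefm the values were -1.11 ± 0.24 and -1.85 ± 0.32.

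Markers of other cells that the sort could have let through were read beside these results. The 4 Pomc neuron markers, all in the table and 3 of them tested, summed to 374 to 473 CPM in fed and 408.5 to 496 in fasted wild type, and to 344 to 446 in fed and 456 to 1118 in fasted cKO. Cartpt carried most of it (median 351 CPM), the defining gene Pomc had a median of 48.3 and a highest value of 441.5 CPM, and Prdm12 was at 0 in 9 libraries. The 10 markers of other hypothalamic neurons, of which 6 were tested, summed to 363 to 846 CPM in fasted wild type and 499.6 to 1057 in fasted cKO, against 293 to 505 and 138 to 365.5 in the fed groups, most of it from Sst (median 415.7 CPM), with Pmch at 0 in 17 libraries and Ghrh in 13. The part of these markers in the fasted genotype differences was not tested.

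Oligodendrocyte marker sums were lower in every fasted library than in any fed one. The 7 oligodendrocyte markers, 4 tested, summed to 90.5 to 103 CPM in fed and 49.1 to 73.5 in fasted wild type, and to 82.7 to 101 and 49.5 to 65.1 in cKO, with the lineage factor Olig2 at 0 in 13 libraries. The 6 tanycyte and ependymal markers, 3 tested, summed to 43.25 to 56.3 and 29.3 to 42.2 CPM in wild type and to 32.4 to 45.1 and 23.4 to 46.6 in cKO, most of it from Vim (median 31.7 CPM). The 8 astrocyte markers, 6 tested, summed to 194 to 292.5 and 172 to 190 CPM in wild type and 189 to 228 and 128 to 184 in cKO, most of it from Aldoc (median 179.8 CPM), with Aqp4 at 0 in 12 libraries and Gfap never above 1.29 CPM. With fasting in cKO 2 oligodendrocyte markers fell and 0 rose, and in each of the tanycyte and astrocyte lists 1 fell and 1 rose. Median log2 fold changes of the tested markers in wild type and cKO were -0.88 and -0.66 (oligodendrocyte), -0.31 and 0.42 (tanycyte) and 0.78 and 1.29 (astrocyte). The lower astrocyte sum therefore does not stand for its list. The 4 dopamine neuron markers, all tested, stayed between 26.0 and 52.7 CPM in every library, and the 3 kisspeptin (KNDy) neuron markers at 6.71 to 10.6 and 24.6 to 49.7 CPM in wild type and 11.9 to 17.95 and 18.3 to 50.6 in cKO. That last sum is mostly Pdyn, the 1 tested gene of its list (median 18.1 CPM), with Kiss1 at 0 in 16 libraries and Tac2 in 18. Endothelial markers (4, 2 tested) reached at most 10.4 CPM, mural markers (3, 1 tested) 3.97 and microglial markers (5, of which 0 were tested) 1.74. Whether these cells have a part in the fasting differences was not tested. The 10 AgRP neuron markers, all tested, summed to 21110 to 31760 CPM in fed and 50960 to 84960 CPM in fasted libraries, nearly all of it Npy (median 32440 CPM) and Agrp (median 7662 CPM). Of the 10, 6 rose and 2 fell with fasting in cKO, where 26.0% of all tested genes rose and 27.0% fell. The receptor gene Npy2r was among those that fell.

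The lists below are read against all tested genes, of which 27.0% fell and 26.0% rose with fasting in cKO, and for wild type only their medians are given, as a description. Of 19 other intermediate filament genes, 13 were tested. In fasting of cKO 2 of them fell (15.4%), 2 rose and 9 did not pass, with a median log2 fold change of -0.072 against -0.033 over all tested genes. In wild type the median was -0.30 against -0.032. Vim, the vimentin of glia and immature neurons, fell in cKO from 35.8 ± 4.68 to 25.6 ± 5.33 CPM (-0.48 ± 0.12, edgeR adjusted p = 0.00166), and the linker filament gene Synm fell from 4.58 ± 0.835 to 1.85 ± 1.23 CPM (-1.31 ± 0.37, edgeR adjusted p = 0.00431). Synm was also higher in fed cKO than in fed wild type (1.71 ± 0.37, edgeR adjusted p = 0.00261). Krt10, a keratin, rose from 19.5 ± 1.55 to 29.0 ± 4.38 CPM (0.58 ± 0.11, edgeR adjusted p = 5.87e-05). Bfsp2, a lens filament gene that shares 11.8% of its exon bases with another model, rose too, from 0.386 ± 0.233 to 1.02 ± 0.354 CPM (1.37 ± 0.56, edgeR adjusted p = 0.0407), but not in fasted replicates 1 and 2 alone (edgeR adjusted p = 0.298). Prph, the peripherin that joins neurofilaments in peripheral neurons, was at 2.31, 1.75, 1.39 and 2.035 CPM in fed and fasted wild type and fed and fasted cKO, and did not pass in cKO (0.53, edgeR adjusted p = 0.487). Of the 6 filament genes below the filter, Gfap had the most counts, 96 over all libraries, and Nes had 17.

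Of 26 tested kinases, phosphatases and turnover factors that act on neurofilaments, 12 fell with fasting in cKO (46.2%, against 27.0% of all genes), 5 rose and 9 did not pass. The median was -0.20 in cKO and -0.23 in wild type. Camk2a, a calcium-activated kinase, fell in cKO from 36.7 ± 3.18 to 16.7 ± 2.58 CPM (-1.13 ± 0.10, edgeR adjusted p = 2.97e-10). The small heat shock gene Hspb1 rose from 8.99 ± 0.293 to 17.2 ± 4.18 CPM (0.93 ± 0.15, edgeR adjusted p = 7.39e-06) and the kinase Mapk8 from 28.25 ± 1.79 to 45.7 ± 6.502 CPM (0.69 ± 0.12, edgeR adjusted p = 1.60e-05). Of the cytolinkers, which tie filaments to microtubules and actin, 3 of 4 tested fell in cKO and 0 rose. They were Plec (-0.66 ± 0.13), Macf1 (-0.25 ± 0.079) and Evpl (-0.61 ± 0.22), of which Evpl did not pass in either fasted set alone (edgeR adjusted p = 0.0714 and 0.0772).

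Of 21 axonal motor genes 12 fell in cKO (57.1%, against 27.0% of all genes), 3 rose and 6 did not pass. The median was -0.20 in cKO and -0.15 in wild type. Kif5a, the kinesin heavy chain that carries neurofilaments, fell in cKO from 97.3 ± 8.22 to 56.55 ± 5.98 CPM (-0.78 ± 0.073, edgeR adjusted p = 6.62e-10), and Dctn1 of dynactin (-0.87 ± 0.081) and Kif3a (-0.60 ± 0.054) fell as well, while the dynein intermediate chain Dync1i2 rose (0.59 ± 0.055, edgeR adjusted p = 7.83e-10). Of 37 tubulin and microtubule-associated genes 22 fell (59.5%) and 6 rose in cKO, with medians of -0.24 in cKO and -0.29 in wild type. Mapt, which encodes the axonal protein tau, fell in cKO from 298 ± 8.37 to 157 ± 9.42 CPM (-0.92 ± 0.058, edgeR adjusted p = 3.26e-13), and Tubb2b (-1.46 ± 0.17) and Dpysl2 (-0.83 ± 0.097) fell too. Tuba1b fell by 0.63 ± 0.068 on the log2 scale but shares 27.4% of its exon bases with another model and much of its sequence with other tubulins, so it is uncertain.

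Of 22 spectrin, ankyrin and axonal actin genes, 12 fell (54.5%, against 27.0% of all genes) and 1 rose in cKO, with medians of -0.39 in cKO and -0.35 in wild type. The adducins Add3 (92.9 ± 5.51 to 29.6 ± 4.97 CPM, -1.65 ± 0.13, edgeR adjusted p = 4.88e-11) and Add1 (-0.65 ± 0.064) cap and link actin, and with Nrcam (-0.98 ± 0.10) and Ank2 (-0.52 ± 0.070) they had the smallest p among those that fell. Of 26 axon growth genes 9 fell (34.6%) and 7 rose in cKO, with medians of -0.13 in cKO and -0.11 in wild type. Sox11, a developmental transcription factor, rose (24.8 ± 2.68 to 50.65 ± 7.26 CPM, 1.03 ± 0.12, edgeR adjusted p = 3.14e-08). The peptidase gene Ecel1 (-1.004 ± 0.087), Klf7 (-1.57 ± 0.15) and Marcksl1 (-0.62 ± 0.074) fell, with Klf7 uncertain because 39.4% of its exon bases lie in another model as well.

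Among 7 genes for proteins known to bind neurofilament messages, 3 fell (42.9%) and 2 rose in cKO, against 27.0% and 26.0% of all genes. Elavl4, a neuronal RNA stabilizer, fell in cKO from 305 ± 8.48 to 202 ± 35.5 CPM (-0.60 ± 0.080, edgeR adjusted p = 4.20e-07) and was higher in fasted cKO than in fasted wild type (0.41 ± 0.081, edgeR adjusted p = 0.000666), which rested on replicates 3 to 5 (0.61 ± 0.057, against 0.081 ± 0.071 in replicates 1 and 2 alone, edgeR adjusted p = 0.505). Arhgef28, whose product binds the Nefl message, rose in cKO (242 ± 11.7 to 325 ± 34.2 CPM, 0.42 ± 0.063, edgeR adjusted p = 2.00e-06) and was lower in fasted cKO than in fasted wild type (-0.25 ± 0.062, edgeR adjusted p = 0.0055), with -0.30 ± 0.055 in replicates 3 to 5 and -0.17 ± 0.065 in replicates 1 and 2 alone (edgeR adjusted p = 6.5e-05 and 0.0757). Sod1, the copper-zinc superoxide dismutase, rose in cKO (0.30 ± 0.067, edgeR adjusted p = 0.000392). Between the fed genotypes at most 6 genes passed in any of the 8 lists. These were 6 of 26 tested axon growth genes, all higher in cKO, where 5.87% of all tested genes were higher and 3.81% lower. In fasting of cKO every list gene described above as rising or falling, except Bfsp2 and Evpl, passed in the same direction in both fasted sets. In relative terms their size differed most between the sets for Vim (-0.83 in replicates 1 and 2, -0.29 in replicates 3 to 5). Elavl4 (-0.90 and -0.42), Macf1 (-0.16 and -0.31), Arhgef28 (0.57 and 0.31), Sod1 (0.40 and 0.24) and Hspb1 (1.21 and 0.72) came next. Of the list counts, those that moved by over 1.5 times were the spectrin, ankyrin and actin genes that rose (3 with replicates 1 and 2) and the intermediate filament genes that rose (1 with replicates 1 and 2, where that list's median was 0.16). The cytolinkers that fell were 2 of 4 in each set.

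**Figure D5:**
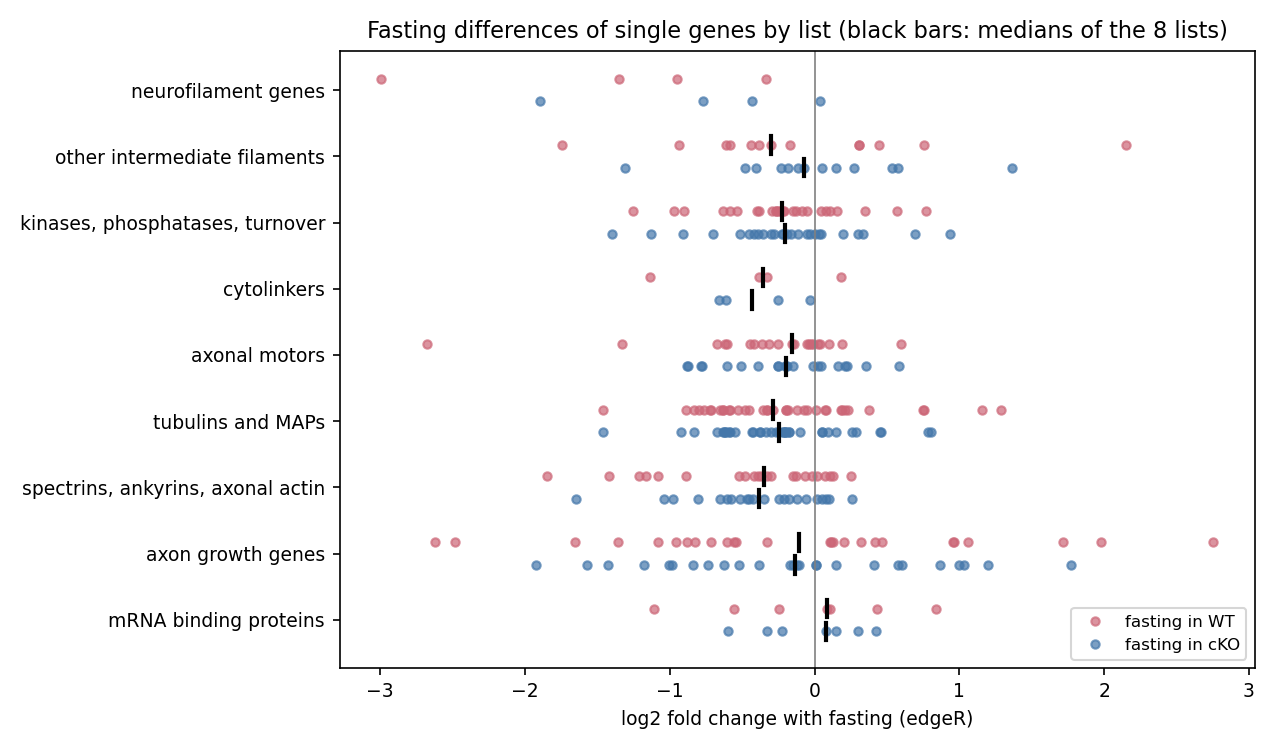
Log2 fold changes with fasting on the x axis for each tested gene of the family and of 8 lists on the y axis, in wild type (red) and cKO (blue), with black bars for the medians of the lists. Nefl lies at -2.99 in wild type and -1.90 in cKO, and the lowest list genes are Nde1 at -2.68 in wild type and Robo2 at -1.93 in cKO.

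Genes whose pattern over the 20 libraries was nearest to that of a member were sought among 10031 genes, by the root mean square difference of log2 CPM after each gene's mean was taken off. This is a description of likeness and says nothing of shared control. Nearest to Nefl were Ldb2 (0.373), Tppp3 (0.475), Npy2r (0.491), Fam19a1 (0.504) and Isyna1 (0.549), against a median of 1.32 over all candidates. Ldb2, a cofactor of LIM-domain transcription factors, was at 76.7 ± 3.70 and 14.6 ± 4.71 CPM in fed and fasted wild type and 89.6 ± 7.40 and 24.2 ± 4.20 CPM in fed and fasted cKO. Npy2r, the autoreceptor for neuropeptide Y, was at 431 ± 11 and 95.8 ± 16.0 CPM in wild type and 390.5 ± 8.5 and 127 ± 11.6 CPM in cKO. All 5 had a lower mean in both fasted groups and a higher mean in fasted cKO than in fasted wild type. Their choice by likeness to Nefl over these libraries favours that order, so it is no separate result.

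The neighbours of the other members had smaller distances, but so had the candidates as a whole, so nearness is not compared between members. Nefm was nearest to Pla2g6 (0.294), Rilpl1 (0.296), Dbnl (0.302), Gfod2 (0.304) and Amigo1 (0.305), against a median of 0.63. Nefh was nearest to Exoc8 (0.161), Paf1 (0.171), Add2 (0.172), Ubxn8 (0.173) and Pdcd6ip (0.175), against a median of 0.373. Ina was nearest to Ttc9b (0.125), Shc2 (0.144), Mapt (0.146), Cyb561d2 (0.147) and Ap1m1 (0.151), against 0.5145. Mapt, the tau gene, was at 270 ± 9.13 and 146 ± 12.5 CPM in fed and fasted wild type. Of these genes Ttc9b shares 29.8% of its exon bases with Map3k10, and Rilpl1 10.5% with another model. Between members, Nefm and Ina were nearest to each other (0.409) and Nefl and Nefh farthest apart (1.23).

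Of the members, Ina had a promoter entry in the RefSeq table used here (GRCm38.p6), and Nefl, Nefm and Nefh were not matched there. The 250 bases before its start, chr19:47014431-47014680 on the plus strand, are shown because Ina is the most abundant member and fell with fasting, with capitals for the GC box (GGGCGG or its reverse complement CCGCCC).
Ina: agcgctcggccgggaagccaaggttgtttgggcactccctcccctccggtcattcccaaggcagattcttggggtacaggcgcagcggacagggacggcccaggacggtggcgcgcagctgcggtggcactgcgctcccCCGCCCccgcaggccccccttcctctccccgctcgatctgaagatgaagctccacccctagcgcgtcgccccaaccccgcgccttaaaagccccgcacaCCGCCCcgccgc

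The window is 70.8% G and C, against a median of 52.4% over 32851 windows of the same length, of which 8.30% are at least as rich. The GC box, found 2 times on either strand, occurs in 32.7% of windows. A match to the EGR-type motif GCGNGGGCG was found 1 time, overlapping a GC box, and 4.70% of windows hold one. The letters of the CRE half-site TGACG (17.8% of windows), AP-1 TGANTCA (6.75%), TATA box TATAAA (12.4%), FoxO GTAAACA (3.17%), MEF2 (3.20%), E-box CACGTG (6.02%) and STAT TTCNNNGAA (7.02%) were not in this window on either strand. A match is a run of letters and does not show binding.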

How the data were processed

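RNA of sorted AgRP neurons was measured in 20 libraries, amplified over 15 cycles with SMART-seq v4 and finished with Nextera XT, as the labels' protocols state. Trimmomatic 0.36, HISAT2 2.1.0 on GRCm38 (mm10), featureCounts (Subread 1.6.2) and DESeq2 1.20.0 are named in the submitters' processing notes. The deposited table of raw counts per gene was tested as it stands. A deposited normalized table holds a signal (counts over 1 size factor for each library) and was only compared with the counts.

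The main fit used edgeR 4.0.16 in R 4.3.3, TMM normalization, a low-count filter, a mean for each of 4 groups and the quasi-likelihood test. The filter asked for a CPM worth about 10 counts at the median library size in at least 5 libraries, and 15 counts in total. It left 13237 genes and at least 99.9% of counts. Benjamini-Hochberg adjustment ran over all tested genes of a comparison, and "rose" or "fell" means an adjusted p under 0.05. CPM use TMM, and log2 CPM a prior count of 2. Fold changes carry SE and 95% intervals, levels SD. Steps were tested on simulated counts in which few genes changed and no fasted sets stood apart. That check does not cover the many changed genes and the fasted sets of these data. The limit set by a gene without reads, 3 counts, equals 0.221 to 0.353 CPM. It covers counting error only, since amplified reads are not independent molecules.

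The members and lists were chosen with earlier results of these data known. Named genes were the 4 members, Phf6, Agrp and Npy, the 5 nearest genes to each member (mean log2 CPM of at least 2, numbered gene models and Y-linked genes left out) and, in each of 8 cytoskeletal lists, up to 4 genes with the smallest p past the threshold in fasting of cKO. Some items that this rule names are not reported here. Nde1, Robo2, Nt5c2, Prph, Nes, Gfap and single markers were named after their values were seen. Exon overlaps come from GENCODE M21, and GC content from its longest transcripts, for 96.0% of tested genes. Alternatives were DESeq2 size factors, upper-quartile normalization, the DESeq2 1.42.0 Wald test, no filter, 1 CPM in 5 libraries, a robust fit, a replicate block, the 2 groups of a contrast alone, each library left out, the fasted sets apart, GC and length offsets (mgcv 1.9.3), Nefl and Nefm summed, unshared exon bases and, added after the data were seen, the shortest transcript and the fasted sets for the lists.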

Additional observations from a re-analysis of the deposited data

Results flagged for a closer look

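Within groups of 5 libraries, 2 values of Ina stood apart from the rest. Replicate 4 of fed wild type was the lowest at 41.7 CPM, with a gap to its nearest neighbour of 0.747 of the group's range. Replicate 5 of fasted cKO was the highest at 33.2 CPM, with a gap of 0.837. Dixon's critical value for 5 samples is 0.71, and chance flags about 1 in 20 groups, where 16 groups were checked. Without the second of these libraries the difference of Ina between fasted genotypes was 0.28 on the log2 scale (edgeR adjusted p = 0.0552).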

How the results depend on the processing

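The fasting falls of Nefl and Ina in cKO kept their direction and call under every alternative, each library left out included. With only the groups compared in the fit, the fed difference of Nefm (-0.48) passed and the fasted difference of Ina (0.33) did not, and 1518 genes were called higher and 1434 lower in fed cKO and 731 and 621 in fasted cKO, against 777, 504, 1517 and 1170 over all groups. With fasted replicates 3 to 5 alone, Nefh reversed in fasting of cKO (-0.13) and between fasted genotypes (-0.039), its difference of responses was 0.059, Nefl between fasted genotypes was 0.89 (against 1.17), and counts were 1370 and 1150 (fed genotypes) and 1810 and 1793 (difference of responses, against 1174 and 1117). With fasted replicates 1 and 2 alone, wild-type fasting values were -3.68 (Nefl), -1.85 (Nefm) and -0.59 (Nefh), differences of responses 1.74, 1.33 and 0.86, Nefh passed between fasted genotypes (0.76) and Ina did not (0.29), and counts were 1401 and 1183 (fed genotypes) and 668 lower (fasted genotypes). GC and length offsets gave -0.022 (Nefh) and -0.74 (Ina) for wild-type fasting, and Nefh passed in fasting of cKO (0.36) and between fasted genotypes (0.35). Summed, Nefl and Nefm gave -2.13 and -1.28 for fasting in wild type and cKO, a fed genotype difference of -0.12, opposite in sign to that of Nefl alone, and a fasted one of 0.73. The cause was not tested in any of these cases.

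Leaving out each library in turn gave -0.058 to 0.18 for Nefl between fed genotypes, below 0 without WT_fed replicate 3 (-0.024) or cKO_fed replicate 5 (-0.058). Nefh in fasting of cKO ranged from -0.0255 to 0.14, below 0 without cKO_fed replicate 3 (-0.0205) or cKO_fasted replicate 1 (-0.018) or 2 (-0.0255). Between fasted genotypes Nefh ranged from 0.21 to 0.38 and Ina from 0.28 to 0.39, and genes called lower in fed cKO from 332 (without cKO_fed replicate 2) to 621. Same-numbered libraries correlated between -0.045 and 0.131, so the numbers were not taken as pairs, and in the 4 comparisons 1, 3, 1 and 2 of 5 libraries correlated best with their own number. A replicate block called 3444 genes higher and 3625 lower in fasting of cKO, against 3445 and 3579, and changed no call of a member. At 6 to 18 reads, fasted wild-type Nefl is limited by counting.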
